A study of Mus musculus with 18 samples.

Results

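The transcripts of 36 aminoacyl-tRNA synthetases were followed across 18 RNA-seq libraries of mouse bone marrow-derived macrophages (BMDMs). The members were chosen by name, as the symbols of the enzymes that charge tRNAs in the cytosol (20 genes) and in mitochondria (16 genes, whose symbols end in 2), and all 36 were found among the 24485 genes of the table. All cells came from Il10-/- mice on the C57BL/6J background, so no group could make its own interleukin 10 (IL-10), a cytokine that restrains macrophage activation. The study asked how IL-10 and (+)-JQ1 (hereafter JQ1), a compound that keeps BET proteins off acetylated chromatin, change the response to lipopolysaccharide (LPS), the outer membrane component of Gram-negative bacteria. The 6 groups of 3 libraries were Unstimulated (saline buffer only), JQ1 at 500 nM, IL-10 at 10 ng/mL, LPS at 50 ng/mL, LPS + JQ1 and LPS + IL-10. Pretreatment lasted 12 h and LPS or buffer was then present for 4 h. Bone marrow was matured in medium conditioned by L929 fibroblasts, and the labels name 3 mice and number the libraries of each group 1 to 3, without saying that a number marks a mouse.

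Each aminoacyl-tRNA synthetase joins 1 amino acid to its tRNAs, and the charged tRNAs are what ribosomes read codons with. Cytosolic enzymes serve nuclear-encoded mRNAs, whereas a separate nuclear-encoded set is imported into mitochondria and serves the few proteins encoded by mitochondrial DNA. Several cytosolic enzymes sit together in the multisynthetase complex, and many are known targets of ATF4, the transcription factor of the amino acid response. Wars, the tryptophan enzyme, is known to be induced by interferon, and the products of Eprs, Kars and Yars have known roles outside translation in immune or inflammatory cells. The Gars and Kars genes each encode both the cytosolic and the mitochondrial enzyme for glycine and lysine, which is why no Gars2 or Kars2 is listed, and the cytosolic phenylalanine enzyme is built from 2 different subunits, Farsa and Farsb.

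The libraries held between 6781952 and 28289498 expected counts. All 36 members had a test result in all comparisons, and 34 of them had at least 10 expected counts in every library. The exceptions were Mars2 and Nars2, which fell to 9 and 6 expected counts in their lowest library, so their fold changes after LPS rest on few reads. Macrophage markers were abundant in all libraries (2790 to 5410 summed TPM, RSEM's length-scaled transcript level, for the 6 listed markers, 1 of them listed under 2 symbols). Single markers moved with JQ1. At adjusted p under 0.05, 1 was higher and 4 lower in JQ1 against Unstimulated (21.9% and 23.7% of all genes tested). In LPS + JQ1 against LPS 0 were higher and 5 lower (24.4% and 32.9%), with Itgam at a mean of 11000 normalised counts in LPS and 2279 in LPS + JQ1 libraries. T cell markers summed to at most 0.32 TPM, B cell markers to at most 0.84 TPM, neutrophil markers to at most 0.15 TPM, with Ly6g at 0 throughout, and fibroblast markers to 0.88 to 5.65 TPM. The Il10 gene, whose transcript cannot be read as a check of the knockout without knowing the deleted part, gave 27.1 to 177 normalised counts. Of the 3 Unstimulated libraries, 1 (replicate 1) carried more interferon-induced transcripts than the others, 323 summed TPM against 84.7 and 99.7.

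The promoters shown first are those of Aars, Gars, Iars, Tars and Yars, the enzymes for alanine, glycine, isoleucine, threonine and tyrosine, because they hold letters that ATF4 is known to bind. RefSeq promoter windows (250 bases before and 50 bases after the gene's start, assembly GRCm38.p6) were found for 27 members, 13 cytosolic and 14 mitochondrial. Searched on both strands, the letters TGATGNAA, the composite element bound by ATF4 together with a C/EBP partner, stood in the windows of these 5 of 13 cytosolic members and of 0 of 14 mitochondrial members, compared with 4.06% of all 27025 promoters in the table. A match is a description of letters and not a bound site. In mm9, the build of the files, each window shown had exactly 1 match on its own chromosome and strand, and other chromosomes were not searched for it. The mm9 positions are Aars chr8:113557492-113557791 (plus strand), Gars chr6:54987745-54988044 (plus), Iars chr13:49777249-49777548 (plus), Tars chr15:11329364-11329663 (minus) and Yars chr4:128866897-128867196 (plus). The sequences are given 5′ to 3′ on the gene's strand, in lower case with the matching letters in capitals.
Aars: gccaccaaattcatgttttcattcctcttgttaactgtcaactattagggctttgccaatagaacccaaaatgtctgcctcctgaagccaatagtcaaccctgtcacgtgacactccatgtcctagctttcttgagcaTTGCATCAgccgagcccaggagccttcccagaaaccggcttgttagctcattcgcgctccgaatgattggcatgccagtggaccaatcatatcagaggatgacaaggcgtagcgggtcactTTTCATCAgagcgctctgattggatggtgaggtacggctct
Gars: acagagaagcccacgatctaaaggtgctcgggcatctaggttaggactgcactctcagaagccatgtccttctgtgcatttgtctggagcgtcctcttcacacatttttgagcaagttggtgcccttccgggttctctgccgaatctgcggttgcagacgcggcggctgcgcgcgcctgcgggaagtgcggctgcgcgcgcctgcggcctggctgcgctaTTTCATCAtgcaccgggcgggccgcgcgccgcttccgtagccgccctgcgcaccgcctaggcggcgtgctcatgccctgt
Iars: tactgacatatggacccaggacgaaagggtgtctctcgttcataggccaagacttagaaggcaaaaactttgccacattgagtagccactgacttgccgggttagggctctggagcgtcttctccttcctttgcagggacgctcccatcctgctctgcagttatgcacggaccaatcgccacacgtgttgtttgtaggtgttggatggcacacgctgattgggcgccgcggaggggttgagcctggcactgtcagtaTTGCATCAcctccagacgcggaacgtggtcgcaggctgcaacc
Tars: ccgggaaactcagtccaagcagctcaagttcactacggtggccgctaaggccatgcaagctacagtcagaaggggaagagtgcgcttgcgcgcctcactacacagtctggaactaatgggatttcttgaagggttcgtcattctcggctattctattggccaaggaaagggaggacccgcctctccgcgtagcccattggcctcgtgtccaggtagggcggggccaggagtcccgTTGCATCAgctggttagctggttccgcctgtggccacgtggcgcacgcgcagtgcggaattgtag
Yars: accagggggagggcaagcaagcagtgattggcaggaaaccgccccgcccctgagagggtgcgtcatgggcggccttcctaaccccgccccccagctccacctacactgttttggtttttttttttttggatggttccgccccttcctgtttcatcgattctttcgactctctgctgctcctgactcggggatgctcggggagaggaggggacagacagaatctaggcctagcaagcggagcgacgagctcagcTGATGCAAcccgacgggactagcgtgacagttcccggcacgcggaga
Also printed are the windows of Nars2 (chr7:104099787-104100086, plus) and Mars2 (chr1:55293771-55294070, plus), the mitochondrial asparagine and methionine enzymes that moved furthest between LPS and LPS + JQ1. They hold no such match, which is the usual case among all promoters and does not set them apart.
Nars2: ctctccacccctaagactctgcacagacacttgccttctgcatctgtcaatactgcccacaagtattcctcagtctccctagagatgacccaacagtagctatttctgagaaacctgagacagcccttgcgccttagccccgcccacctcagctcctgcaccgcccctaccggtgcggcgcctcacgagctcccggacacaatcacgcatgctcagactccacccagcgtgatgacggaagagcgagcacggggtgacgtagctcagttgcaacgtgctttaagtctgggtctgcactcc
Mars2: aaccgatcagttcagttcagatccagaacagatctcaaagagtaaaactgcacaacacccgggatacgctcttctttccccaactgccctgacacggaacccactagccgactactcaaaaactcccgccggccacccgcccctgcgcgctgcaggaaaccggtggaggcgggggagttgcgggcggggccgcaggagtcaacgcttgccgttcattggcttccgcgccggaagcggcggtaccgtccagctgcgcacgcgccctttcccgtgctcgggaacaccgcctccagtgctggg

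The other letters searched, also on both strands, stood in 0 to 3 of the 13 cytosolic and in 1 or 2 of the 14 mitochondrial windows. No motif was tested against its share over all promoters. CCGGAAGT, an ETS family element, stood in 2 cytosolic (Farsa, Mars) and 1 mitochondrial window (Rars2), against 4% of all promoters. The NRF1 element stood in 3 cytosolic (Farsb, Kars, Tars) and 2 mitochondrial windows (Iars2, Mars2), against 4.78%. TTCNNNGAA, a STAT element, stood in 2 (Aars, Kars) and 1 (Nars2), against 8.47%, and an NF-kB element in 0 and 1 (Iars2), against 1.62%. Matches of different motifs shared a base in 0 member windows. Windows of Wars and Rars, the members that rose most with LPS, were not in the table.

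In Unstimulated cells the cytosolic enzymes were the more abundant set per transcript length. Their mean TPM ran from 14.6 ± 0.966 (SD, n = 3) for Yars to 106 ± 3.78 for Nars, the asparagine enzyme. Qars, the glutamine enzyme, followed at 76.2 ± 4.18 TPM and Kars at 54.3 ± 3.43 TPM, and these 3 levels stood apart by more than their SDs, whereas the next pair, Gars at 42.5 ± 3.37 TPM and Aars at 39.1 ± 2.08 TPM, did not. Mitochondrial enzymes ran from 1.22 ± 0.332 TPM for Ears2 to 27.4 ± 1.42 TPM for Iars2. Summed over members, the cytosolic set held 718 ± 37.2 TPM and the mitochondrial set 144 ± 16.2 TPM, a ratio of 5.04 ± 0.777.

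With LPS the cytosolic and the mitochondrial enzymes moved apart in their counts and medians. Of 20 cytosolic members, 12 were higher and 5 lower in LPS than in Unstimulated libraries (DESeq2, Benjamini-Hochberg adjusted p under 0.05), beside 31.6% of all genes tested called higher and 32.9% called lower. Of 16 mitochondrial members, 1 was higher and 10 were lower. The median log2 fold change was 0.32 over the cytosolic members and −0.87 over the mitochondrial members, next to −0.07 over all genes tested. These counts are given as descriptions, since members of a set are not replicates. In bulk RNA, fewer cells that express a gene and less RNA per cell cannot be told apart.

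Wars rose the most. It gave 557, 475 and 491 normalised counts (counts divided by the library's size factor) in the 3 Unstimulated libraries and 3552, 3592 and 3341 with LPS, a log2 fold change of 2.78 ± 0.0941 (SE; adjusted p = 7.99e-190). The groups lie far apart, and the Unstimulated library with the most interferon-induced RNA was also the one with the highest Wars, although its part in the result was not tested. Leaving out single libraries did not end this call. Wars took 3.51% to 4.07% of the summed cytosolic TPM before LPS and 14.6% to 14.9% after it.

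Rars, the arginine enzyme and a member of the multisynthetase complex, went from 590, 524 and 533 normalised counts to 3099, 3036 and 3116 (log2 fold change 2.48 ± 0.0631, adjusted p below the smallest number the software can hold and written as 0). All 3 LPS libraries stood above all Unstimulated ones, and Rars became the most abundant member of the set at 127 ± 10.2 TPM, from 38.8 ± 3.34 TPM. Kars rose from 717, 743 and 778 normalised counts to 2363, 2381 and 1999 (1.59 ± 0.0888, adjusted p = 1.03e-70). Farsa followed at a log2 fold change of 1.53 ± 0.0881 (adjusted p = 3.32e-66), and Aars at 1.17 ± 0.0907 (1.58e-37). The 2 subunits of the phenylalanine enzyme parted, since Farsb was lower with LPS (−0.43 ± 0.135, adjusted p = 0.00287, with overlapping groups). Farsb exons share 265 of 2444 bases with the oppositely oriented Sgpp2, and reads of such overlaps cannot be assigned without strand.

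Sars, the serine enzyme, was the cytosolic member that fell most, from 823, 898 and 826 normalised counts to 458, 458 and 422 (log2 fold change −0.92 ± 0.0778, adjusted p = 1.81e-31). Its groups do not overlap. Qars (−0.68 ± 0.0813), Mars (−0.55 ± 0.126) and Nars (−0.28 ± 0.0586), the methionine enzyme being Mars, were lower too. As a result the most abundant cytosolic enzymes of Unstimulated cells, Nars and Qars, stood sixth and eighth in TPM after LPS, behind Rars, Wars and Kars.

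Among the mitochondrial enzymes, Nars2 fell furthest with LPS. Its normalised counts were 66.3, 76.1 and 67.7 in Unstimulated and 8.48, 19.7 and 12.3 in LPS libraries (log2 fold change −2.31 ± 0.298, adjusted p = 3.23e-14). Vars2, for valine, went from 177, 195 and 166 to 48.1, 44.5 and 31.9 (−2.10 ± 0.186, adjusted p = 8.45e-29), and Pars2, for proline, from 68.7, 77.8 and 64.4 to 15.6, 27.9 and 20.9 (−1.66 ± 0.268, adjusted p = 1.77e-09). None of these 3 pairs of groups overlaps. The others called lower were Cars2 (−1.41), Mars2 (−1.23), Aars2 (−1.13), Hars2 (−0.88), Tars2 (−0.87), Iars2 (−0.76) and Fars2 (−0.56). Yars2, the tyrosine enzyme, was the only mitochondrial member called higher (112, 132 and 85.8 against 151, 162 and 142; 0.51 ± 0.165, adjusted p = 0.0034), and without Unstimulated replicate 3 it was not called.

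**Figure D1:**
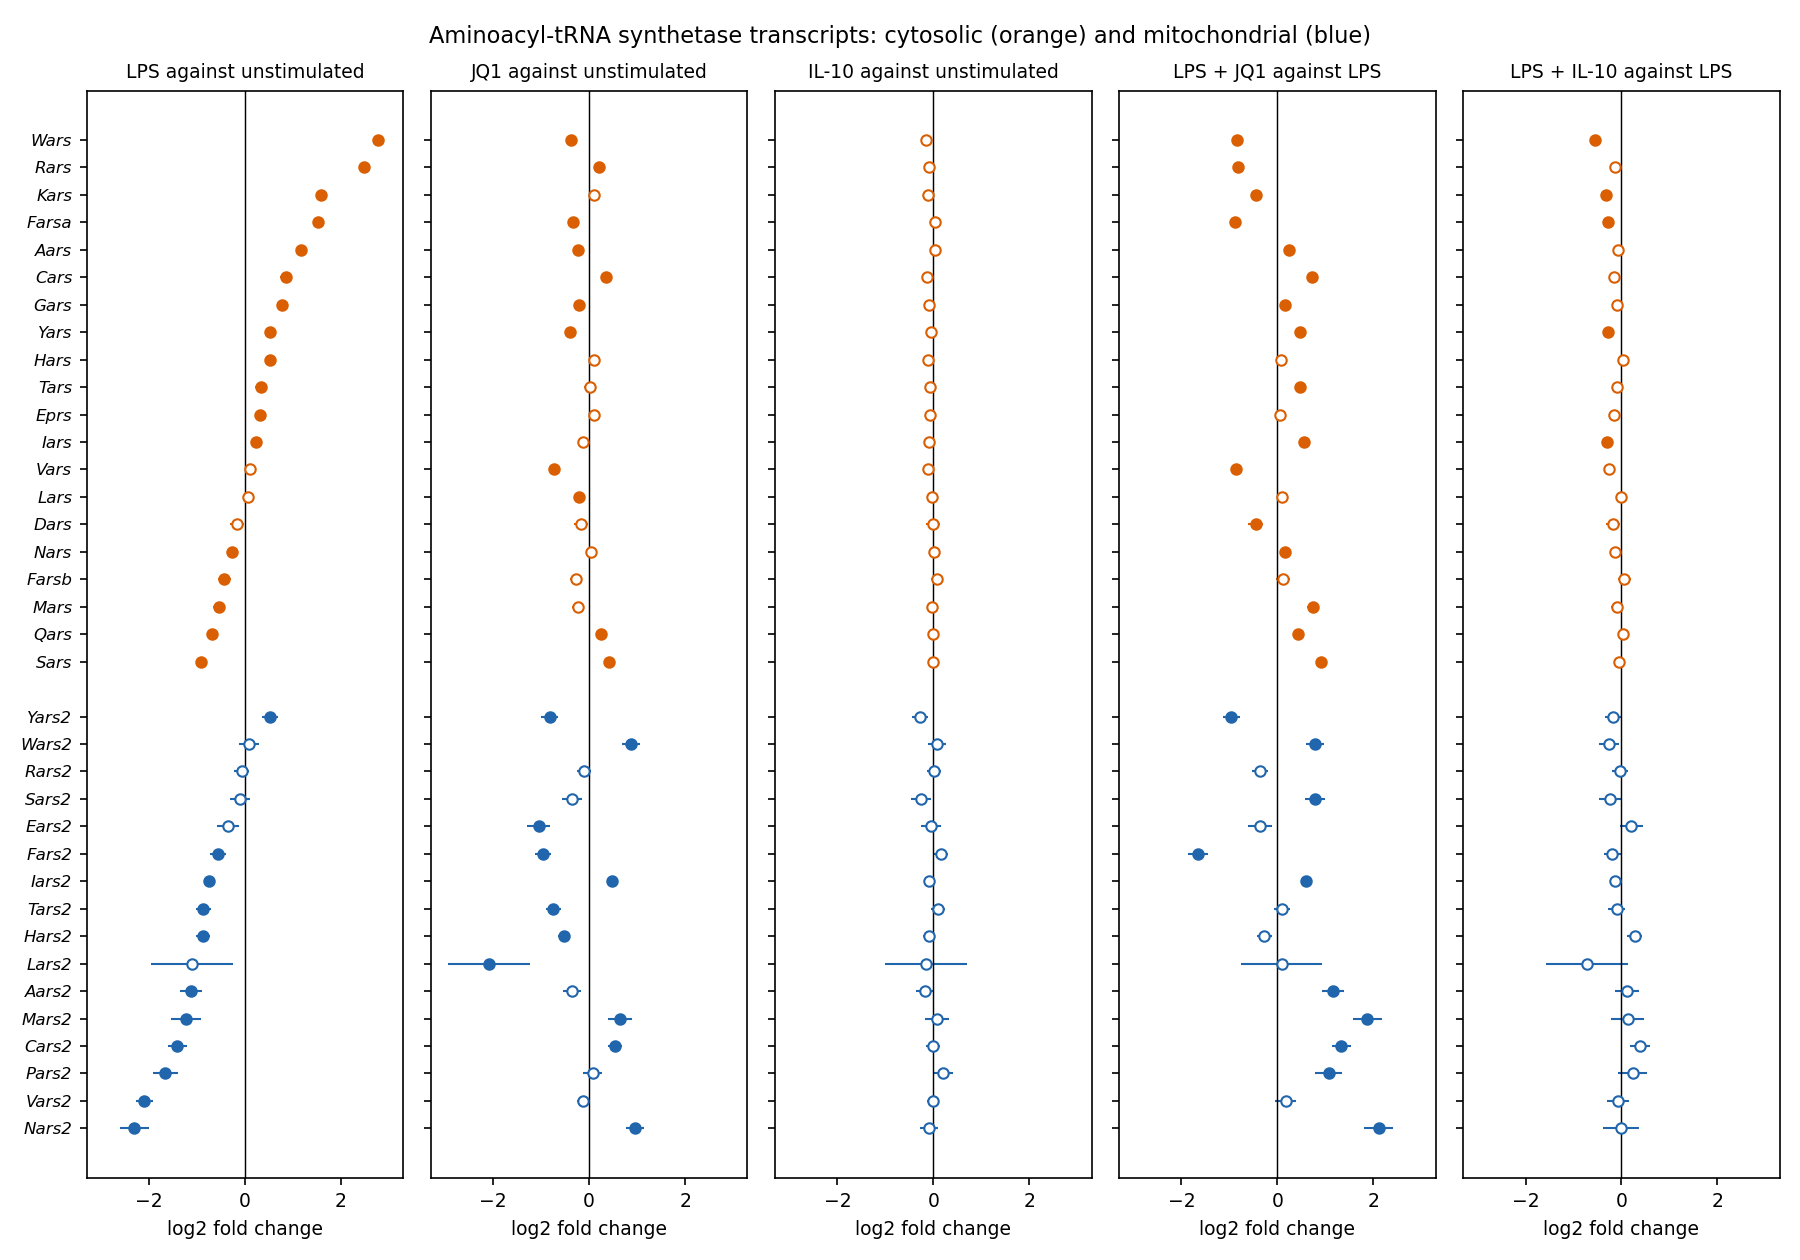
Log2 fold change of each of the 36 members in 5 comparisons (x axis), with cytosolic members in orange and mitochondrial members in blue, ordered by their change with LPS. Bars are 1 SE from the DESeq2 fit of 18 libraries, filled points passed adjusted p under 0.05, and the LPS panel runs from 2.78 for Wars to −2.31 for Nars2.

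The direction of many LPS changes depended on how the libraries were scaled against each other, because the median of the 12243 expressed genes (at least 10 counts in at least 3 libraries) itself moved. It was −0.07 on the log2 scale under DESeq2's median of ratios, −0.14 under TMM, −1 with scaling to the total count and −0.81 in TPM, and the share of called genes that were higher went from 49% to 20.1% between the first and the third. With total-count or TPM scaling, 5 cytosolic members were called higher and 13 lower, and 0 and 16 mitochondrial members. Relative to the median of all expressed genes the picture hardly moved. The cytosolic median lay 0.36 to 0.39 above it and the mitochondrial median 0.80 below it under all 4 scalings, 14 of 20 cytosolic members lay above it under all 4, and 13 of 16 mitochondrial members below it. Aars, Farsa, Kars, Rars and Wars were called higher, and Farsb, Mars, Nars, Qars, Sars and the same 10 mitochondrial members lower, whichever scaling was used. Relative to all genes, Wars lay 2.84 to 2.86 and Rars 2.52 to 2.55 higher, Vars2 between −2.03 and −1.95 and Nars2 between −2.24 and −2.02.

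**Figure D2:**
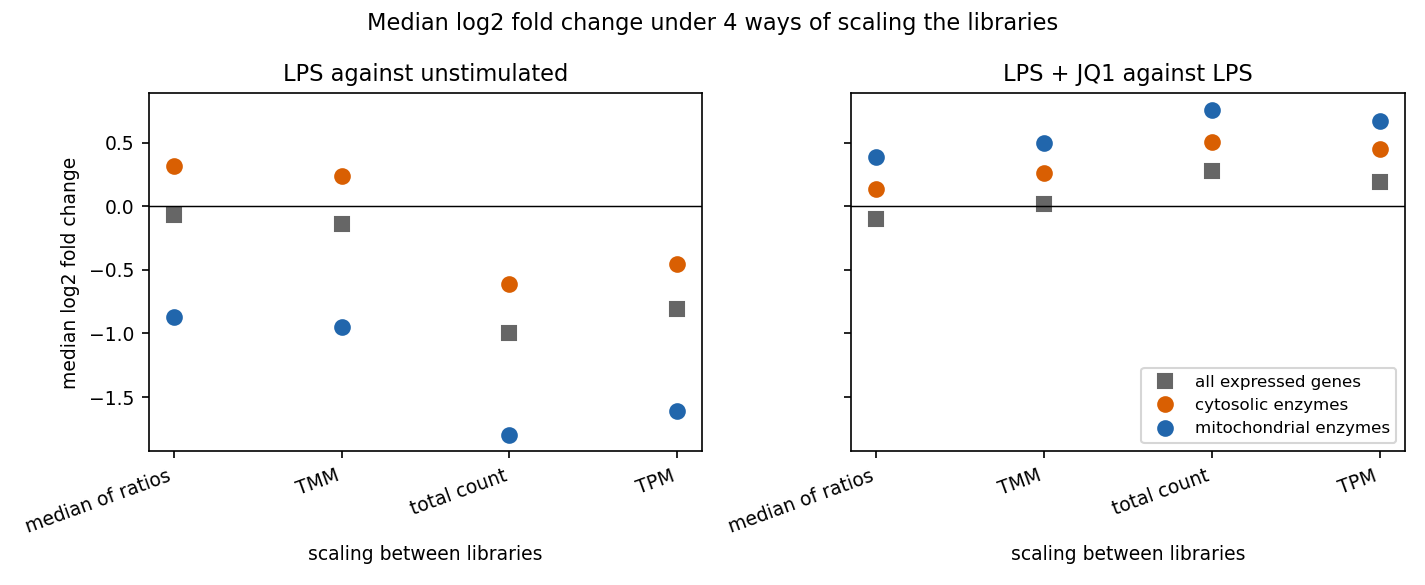
Median log2 fold change (y axis) of all expressed genes (grey squares), the 20 cytosolic members (orange) and the 16 mitochondrial members (blue) under 4 scalings of the libraries (x axis), for LPS against Unstimulated and for LPS + JQ1 against LPS. All 3 medians shift together, from −0.07 to −1 for all expressed genes with LPS, while the distances between them stay nearly the same.

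The balance of both sets is computed within each library and does not use that scaling. It was taken as the mean log2(TPM + 0.1) of the cytosolic members minus that of the mitochondrial members, and it is given without a test. It was 2.28, 2.11 and 2.36 in the Unstimulated libraries and 3.65, 3.40 and 3.69 with LPS. Same-numbered replicates, which were not taken as pairs here, shifted by 1.37, 1.29 and 1.33. Every LPS library lay above every library without LPS, including those with JQ1 (2.36 ± 0.0661) or IL-10 (2.24 ± 0.114). In summed TPM, the mitochondrial set went from 144 ± 16.2 to 53.6 ± 6.08 while the cytosolic set stood at 752 ± 31.6, within the spread of the Unstimulated value of 718 ± 37.2.

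**Figure D3:**
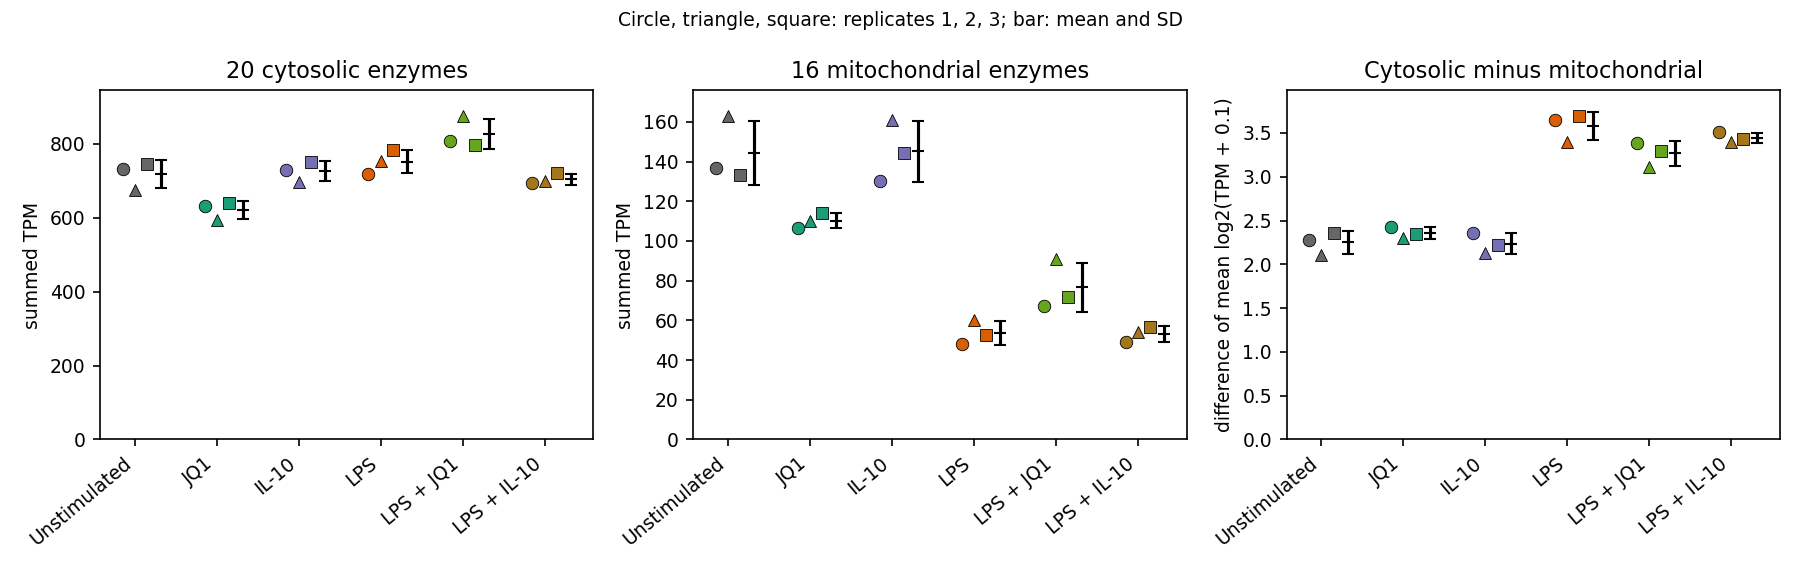
Summed TPM of the 20 cytosolic enzymes (left) and the 16 mitochondrial enzymes (middle), and the difference of their mean log2(TPM + 0.1) (right), for each library by group (x axis); black bars are the mean and SD of 3 libraries. Mitochondrial sums fall from 133 to 163 TPM in Unstimulated to 47.9 to 60.0 TPM in LPS libraries, and cytosolic sums stay between 594 and 874 TPM in all groups.

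JQ1 alone, in cells without LPS, moved members of both sets in both directions. It left 4 cytosolic members higher and 7 lower, and 5 mitochondrial members higher and 6 lower, where 21.9% of all genes tested were called higher and 23.7% lower. The median log2 fold change was −0.16 over the cytosolic and −0.24 over the mitochondrial members, with 0.00 over all genes tested. With total-count scaling the all-gene median was −0.17 and the share of called genes that were higher fell from 48% to 26.8%, and the members' counts became 1 higher and 11 lower in the cytosol and 4 higher and 9 lower in mitochondria. Nars2, Wars2 and Iars2 were higher and Sars was the only cytosolic member higher under all 4 scalings.

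Nars2 rose with JQ1 from 66.3, 76.1 and 67.7 to 136, 125 and 140 normalised counts (log2 fold change 0.95 ± 0.183, adjusted p = 1.2e-06), the opposite direction to its change with LPS. Wars2, the mitochondrial tryptophan enzyme, went from 80.2, 79.5 and 89.8 to 163, 161 and 136 (0.87 ± 0.189, adjusted p = 2.14e-05), against the direction of its cytosolic counterpart Wars (−0.38 ± 0.101, adjusted p = 0.000611). In both genes the groups do not overlap. Mars2 was called higher (60.2, 37.2 and 46.3 against 69.2, 86.8 and 75.1; 0.65 ± 0.249, adjusted p = 0.0221), but not without Unstimulated replicate 2, Unstimulated replicate 3 or JQ1 replicate 2.

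The mitochondrial members that fell most with JQ1 were Lars2, Ears2 and Fars2, for leucine, glutamate and phenylalanine. Ears2 gave 66.3, 40.6 and 61.7 normalised counts in Unstimulated and 28.5, 22.7 and 33.0 in JQ1 libraries (−1.05 ± 0.237, adjusted p = 4.35e-05), although 89 of its 5152 exon bases overlap Ubfd1 on the other strand. Fars2 gave 165, 169 and 180 against 76.1, 96.6 and 91.6 (−0.97 ± 0.166, adjusted p = 4.14e-08). Of the cytosolic members Vars fell most, from 785, 687 and 664 to 401, 427 and 456 (−0.74 ± 0.0989, adjusted p = 1.18e-12). The groups of these 3 genes do not overlap. The cytosolic count of 7 lower became 4 without JQ1 replicate 2, when Aars, Gars and Lars were not called.

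Lars2 behaved unlike any other member between libraries of the same group. It gave 250, 1131 and 270.1 normalised counts in Unstimulated, 206, 1035 and 243 in IL-10, 146, 481 and 138 in LPS and 102, 614 and 96.0 in LPS + JQ1 libraries, with replicate 2 the high one each time. In JQ1 the values were 94.3, 114 and 180.4 and in LPS + IL-10 131, 198 and 133, where replicate 2 did not stand out as far. The fall with JQ1 (−2.08 ± 0.854, adjusted p = 0.0339) was not called without Unstimulated replicate 2, JQ1 replicate 1 or JQ1 replicate 2, and no other Lars2 difference passed among the comparisons with Unstimulated or LPS. The replicate 2 libraries were on 1 lane without LPS and on another with LPS, and the part of lane or mouse in the Lars2 values was not tested.

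**Figure D4:**
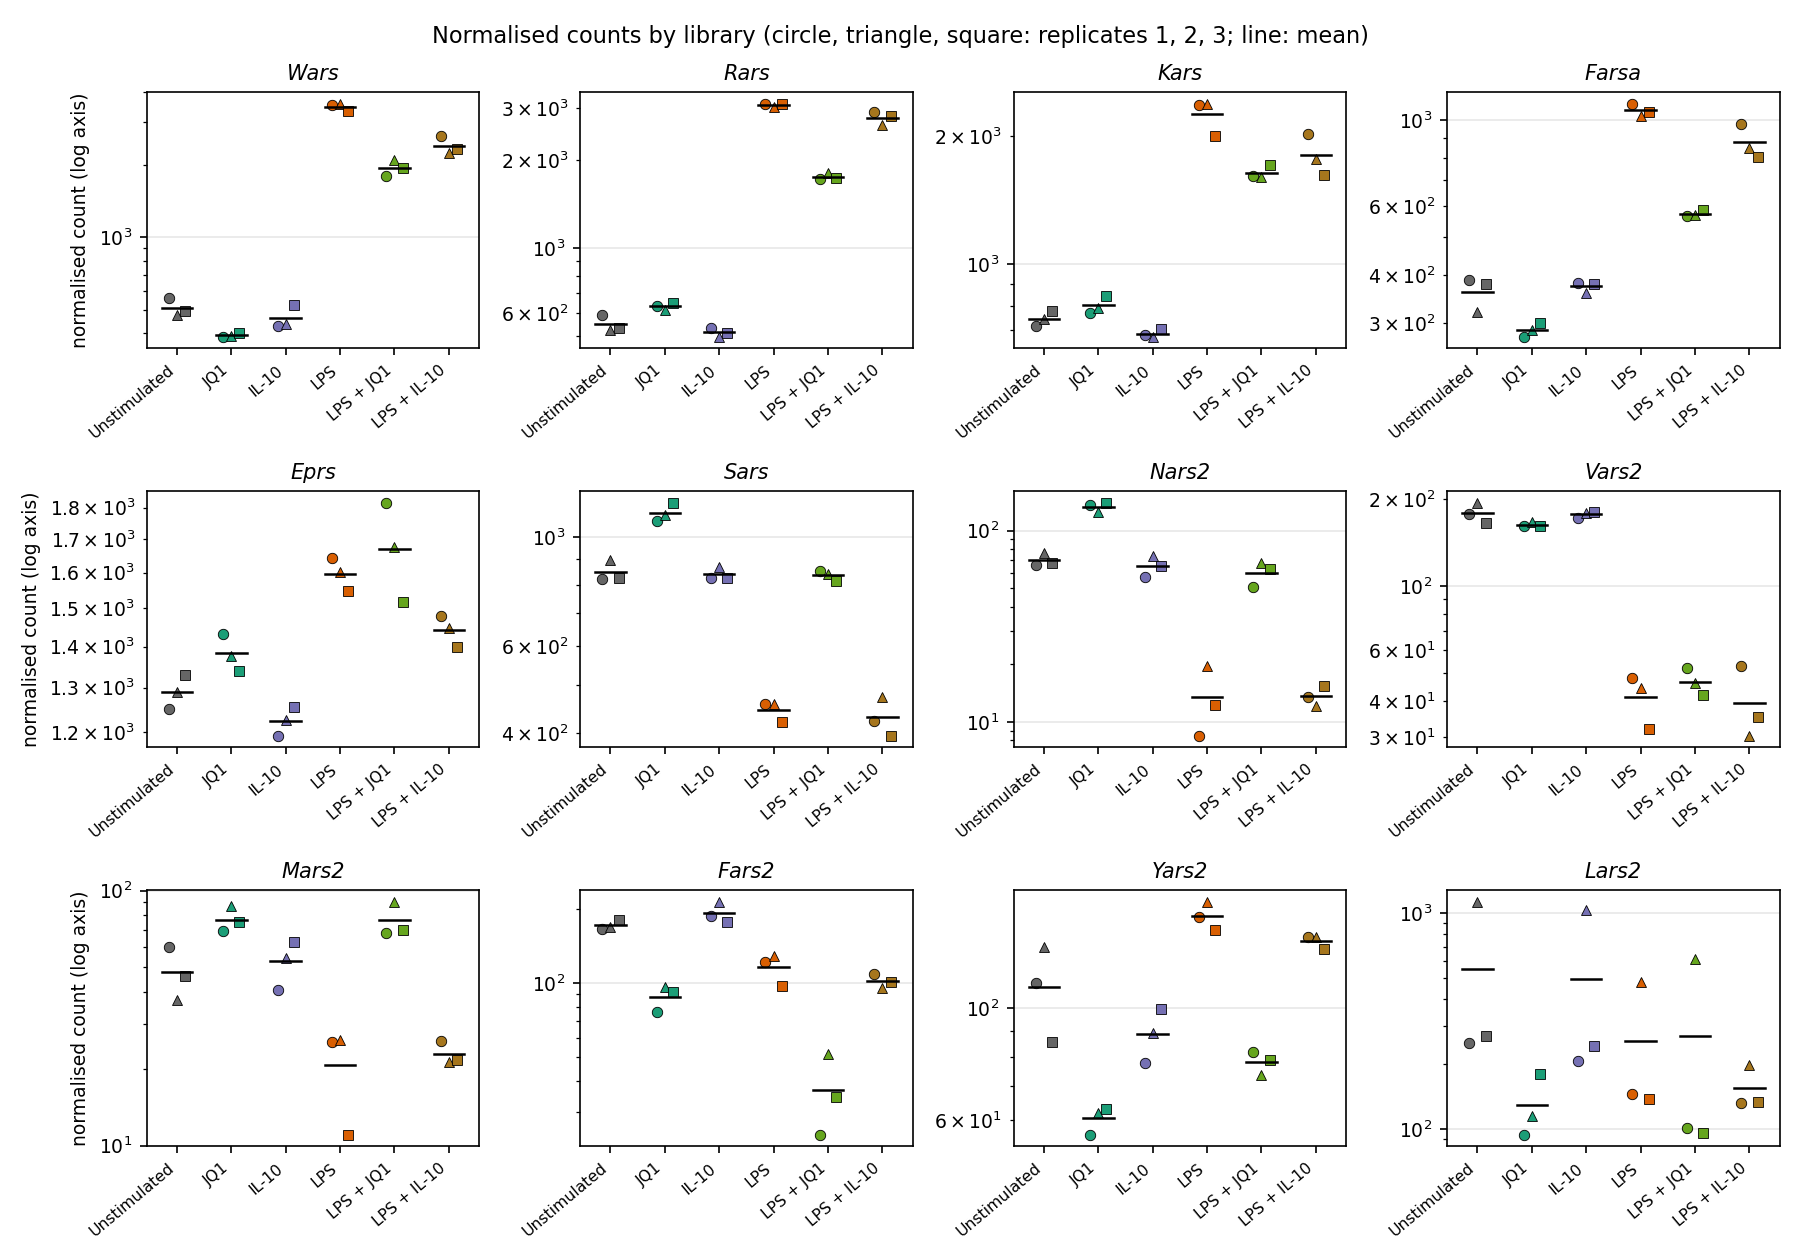
Normalised counts (y axis, log scale) of 12 members in each of the 18 libraries by group (x axis), with circles, triangles and squares for replicates 1, 2 and 3 and a line at the mean. LPS libraries lie above Unstimulated ones for Wars, Rars, Kars, Farsa and Eprs and below them for Sars, Nars2, Vars2 and Fars2, and Lars2 replicate 2 stands high in 4 groups.

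When JQ1 preceded LPS, more members of both sets were higher than lower against LPS alone. Among cytosolic members 10 were higher and 6 lower, and among mitochondrial members 8 were higher and 2 lower, where 24.4% of all genes tested were called higher and 32.9% lower. The median log2 fold change was 0.14 over the cytosolic and 0.39 over the mitochondrial members and −0.11 over all genes tested. Relative to the median of expressed genes, the cytosolic median lay 0.24 to 0.25 and the mitochondrial median 0.48 to 0.49 higher under the 4 scalings, and total-count scaling raised the share of called genes that were higher from 42.5% to 64.9%. All 18 members called higher were called higher under all 4 scalings, and of those called lower Farsa, Rars, Vars, Wars, Fars2 and Yars2 were lower under all 4, while Dars and Kars were not.

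The members that rose most were mitochondrial. Nars2 went from 8.48, 19.7 and 12.3 in LPS to 50.8, 67.4 and 62.8 normalised counts in LPS + JQ1 libraries (2.11 ± 0.303, adjusted p = 1.72e-11). These counts were close to its Unstimulated values of 66.3 to 76.1, but in TPM Nars2 stood at 1.35 to 1.95 against 2.58 to 2.81. Mars2 went from 25.5, 25.9 and 11.1 to 68.5, 90.6 and 70.2 (1.88 ± 0.301, adjusted p = 1.85e-09), and Cars2, for cysteine, from 55.1, 46.5 and 38.1 to 120, 117 and 112 (1.33 ± 0.195, adjusted p = 3.93e-11). These groups do not overlap in any of the 3 genes. The others called higher were Aars2 (1.16), Pars2 (1.07), Wars2 (0.79), Sars2 (0.78) and Iars2 (0.60). Vars2, which was second to Nars2 in its fall with LPS, gave 51.9, 46.3 and 41.9 normalised counts in LPS + JQ1 libraries against 48.1, 44.5 and 31.9 with LPS alone (0.18 ± 0.218, adjusted p = 0.512), with a 95% interval from −0.249 to 0.605.

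Fars2 fell furthest, from 122, 129 and 97.0 to 24.3, 51.6 and 34.5 normalised counts (−1.65 ± 0.211, adjusted p = 3.43e-14). Yars2 went from 151, 162 and 142 to 81.7, 73.7 and 78.8 (−0.96 ± 0.176, adjusted p = 1.43e-07) and Farsa from 1103, 1028 and 1047 to 565, 569 and 586 (−0.88 ± 0.0855, adjusted p = 4.06e-24). The groups are apart in all 3 genes. Of the 3 members that serve phenylalanine, Fars2 and the cytosolic subunit Farsa were lower, while the other cytosolic subunit, Farsb, was not called (0.12 ± 0.139, adjusted p = 0.493). Vars (−0.86), Wars (−0.84 ± 0.0889, adjusted p = 1.89e-20), Rars (−0.82 ± 0.0568, adjusted p = 2.01e-45), Dars (−0.45) and Kars (−0.45) were the other members called lower. Wars gave 1797, 2102 and 1944 normalised counts and Rars 1716, 1802 and 1733 in LPS + JQ1 libraries, below all 3 LPS libraries and above all Unstimulated ones. Kars, at 1612, 1599 and 1712, also lay between its Unstimulated and LPS libraries. Without LPS replicate 3, Dars was not called.

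Sars was the cytosolic member that rose most in LPS + JQ1, to 852, 843 and 814 normalised counts from 458, 458 and 422 (0.91 ± 0.0787, adjusted p = 1.32e-29). In normalised counts it stood at the level of Unstimulated cells (823 to 898). In TPM it was lower, at 23.3, 25.2 and 23.4 against 33.1, 34.4 and 33.8 in Unstimulated libraries. LPS + JQ1 was not tested against Unstimulated. Mars (0.75 ± 0.125), Cars (0.73 ± 0.105), Iars (0.55 ± 0.0901), Yars (0.47 ± 0.0897), Tars (0.47 ± 0.109), Qars (0.42 ± 0.0825), Aars (0.25 ± 0.0884), Nars (0.17 ± 0.0592) and Gars (0.16 ± 0.0676) were also higher than with LPS alone. The calls of Aars, Gars and Nars were lost when certain single libraries were left out. Mars shares 68 of 3423 exon bases with Ddit3, an ATF4-induced gene on the opposite strand that was itself higher (1.66 ± 0.147).

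In LPS + JQ1 against LPS, 9 of 12 cytosolic members listed as ATF4 targets were higher and 1 was lower (Wars), with a median log2 fold change of 0.36. Of all genes tested 24.4% were higher and 32.9% lower, with a median of −0.11, and no list was tested against another. The 5 members whose windows are printed above with TGATGNAA were all called higher in LPS + JQ1 against LPS, at 0.16 to 0.55. Of the 8 other cytosolic members with a window, which ran from −0.88 to 0.91, 3 were higher and 3 lower. Sars (0.91) and Mars (0.75), the cytosolic members that rose most, have windows without the letters. A link between the letters and the change was not tested. The same 5 were called higher with LPS (0.24 to 1.17), though under total-count scaling only Aars kept that direction and call, Iars was not called with TMM or without any of 3 single libraries, Tars was not called without LPS replicate 1, and 3 of the 5 (Aars, Gars, Yars) were lower with JQ1 alone. Of the 8 enzymes of the multisynthetase complex, Iars, Mars and Qars were higher in LPS + JQ1 and Dars, Kars and Rars lower. By structural class, 5 of 9 class I members were higher and 3 lower (median 0.42), and 5 of 10 class II members were higher and 3 lower (median 0.14).

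The balance of cytosolic over mitochondrial enzymes was 3.39, 3.11 and 3.3 in LPS + JQ1 against 3.65, 3.40 and 3.69 in LPS libraries. Same-numbered replicates shifted by −0.25, −0.29 and −0.39, although the numbers were not taken to pair these libraries. The shift in balance depended on how the sets were summarised. It was −0.10 with log2(TPM + 1) or with the 34 members of at least 10 counts everywhere, and 0.38 with the median over members in place of the mean. Summed TPM rose in both sets, to 827 ± 41.4 from 752 ± 31.6 for the cytosolic and to 76.6 ± 12.4 from 53.6 ± 6.08 for the mitochondrial enzymes.

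Whether JQ1 changed the response to LPS was tested by the interaction, the log2 fold change of LPS in JQ1-treated cells minus that in untreated cells. It passed for 9 cytosolic members above 0 and 4 below it, and for 7 mitochondrial members above and 1 below, where 17.7% of all genes tested were above and 23.8% below. The median was 0.24 over the cytosolic and 0.74 over the mitochondrial members. Aars2 differed most (1.51 ± 0.295, adjusted p = 2.08e-06). LPS took it from 110, 84.6 and 79.1 to 42.4, 51.7 and 30.7 normalised counts in untreated cells, and in JQ1-treated cells it went from 77.8, 71.0 and 65.9 to 101, 89.5 and 91.1. Mars2 (1.23 ± 0.391) and Nars2 (1.16 ± 0.354) came next.

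Rars had the largest interaction below 0 (−1.01 ± 0.0892, adjusted p = 5.21e-28). Its LPS response was 2.48 in untreated cells and 1.47 ± 0.063 in JQ1-treated cells, where it went from 634, 615 and 647 to 1716, 1802 and 1733 normalised counts. Rars was also the only member called below 0 under all 4 scalings, while 16 members were called above 0 under all 4. Kars, at 769.7, 792 and 841 normalised counts in JQ1 libraries, had an interaction (−0.56 ± 0.125, adjusted p = 5.02e-05) that came to −0.00045 with total-count scaling and Fars2 (−0.68 ± 0.269, adjusted p = 0.0292) was not called with edgeR, TMM, total-count or TPM scaling, or on leaving out any of 8 single libraries. With total-count scaling the share of called genes above 0 moved from 42.6% to 85.4%.

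IL-10 without LPS left no member called, in a comparison where 1.8% of all genes tested were called higher and 1.01% lower. DESeq2, edgeR's quasi-likelihood test and limma each called 0 of 36, and by DESeq2 0 had an unadjusted p under 0.05. The log2 fold changes ran from −0.28 for Yars2 to 0.21 for Pars2, with medians of −0.06 and −0.03 for the 2 sets.

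With LPS present, 5 cytosolic members were lower with IL-10 than with LPS alone and 0 higher, and 0 mitochondrial members were called, where 8.38% of all genes tested were higher and 8.81% lower. Of the 16 mitochondrial members 0 had an unadjusted p under 0.05 and edgeR and limma called 0 as well. Wars changed most, from 3552, 3592 and 3341 to 2631, 2247 and 2326 normalised counts (−0.54 ± 0.0887, adjusted p = 3.42e-08). Its groups do not overlap, and Wars and Kars were the members called lower under all 4 scalings, but Kars was not called when only the compared groups were fitted (adjusted p = 0.163), where 1 cytosolic member was. Kars went from 2363, 2381 and 1999 to 2020, 1765 and 1622 (−0.32 ± 0.0862, adjusted p = 0.00211) with overlapping groups, and Iars from 853, 846 and 782 to 755, 616 and 638 (−0.31 ± 0.0936, adjusted p = 0.00925) without overlap. Farsa (−0.27) and Yars (−0.28) were called too. Leaving out single libraries gave 2 to 7 members, and the calls of Farsa, Iars and Yars each fell away without LPS replicate 1, LPS + IL-10 replicate 2 or LPS + IL-10 replicate 3, among others. Total-count scaling raised the share of called genes that were higher from 48.7% to 71.1%. The interaction of LPS and IL-10 passed for Wars alone (−0.39 ± 0.132, adjusted p = 0.0426, where 4% of all genes tested were above 0 and 3.44% below) but not by edgeR's quasi-likelihood test (adjusted p = 0.0864), or on leaving out any of 8 single libraries.

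The LPS response inside each pretreatment was read from comparisons that share libraries with those above. In JQ1-treated cells LPS left 14 cytosolic members higher and 4 lower and 1 mitochondrial member higher and 7 lower (27.6% and 31% of all genes tested). With total-count scaling these became 10 higher and 6 lower in the cytosol and 1 higher and 9 lower in mitochondria. Wars went from 387, 390.4 and 398 to 1797, 2102 and 1944 normalised counts (2.31 ± 0.0964), and Aars from 859.6, 838 and 864 to 2886, 2658 and 2543 (1.66 ± 0.0905). Rars followed at 1.47 ± 0.063, with the values given above. Vars2 went from 161, 167 and 161 to 51.9, 46.3 and 41.9 (−1.80 ± 0.176), and no pair of groups overlaps in these genes. Fars2 (−1.25 ± 0.211) and Nars2 (−1.15 ± 0.192) were the next lowest. Sars2, the serine enzyme of mitochondria, was the 1 called higher (1.03), from 57.1, 91.7 and 70.5 to 156, 135 and 155 normalised counts. In IL-10-treated cells LPS left 11 higher and 6 lower in the cytosol and 1 higher (Yars2, 0.62) and 10 lower in mitochondria (33.2% and 33.8%). With total-count or TPM scaling these became 5 higher and 12 lower in the cytosol and 0 higher and 15 lower in mitochondria, so the direction of many members rests on the scaling. Rars went from 534, 498 and 513 to 2911, 2634 and 2819 normalised counts (2.43 ± 0.0606). Wars went from 426, 436 and 523 to 2631, 2247 and 2326 (2.38 ± 0.0927) and Kars from 681, 677 and 705 to 2020, 1765 and 1622 (1.39 ± 0.0878). All 3 were higher in every LPS + IL-10 library than in every IL-10 library. Nars2 went from 57.3, 73.8 and 65.6 to 13.5, 12.2 and 15.3 (−2.22 ± 0.293). Vars2 went from 172, 179 and 180.3 to 52.8, 30.4 and 35.2 (−2.17 ± 0.186) and Pars2 from 68.7, 84.5 and 89.7 to 23.0, 35.0 and 21.6 (−1.63 ± 0.249), and these groups do not overlap either.

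Compared directly, LPS + JQ1 libraries held more of 11 cytosolic and 8 mitochondrial members than LPS + IL-10 libraries and less of 4 and 4, where 23.8% of all genes tested were higher and 31.6% lower. Nars2 was 12.2 to 15.3 normalised counts in LPS + IL-10 and 50.8 to 67.4 in LPS + JQ1 libraries (2.12 ± 0.304). Mars2 (1.75 ± 0.296) and Aars2 (1.05 ± 0.22) came next, at 25.7, 21.3 and 21.6 and at 32.5, 54.7 and 48.7 normalised counts in LPS + IL-10 libraries. Fars2 (−1.46 ± 0.214), Yars2 (−0.79 ± 0.178) and Rars (−0.67 ± 0.0571) stood at the other end. In LPS + IL-10 libraries Fars2 gave 108, 95.8 and 101 and Yars2 138, 138 and 131 normalised counts. The groups do not overlap in any of these 6 genes, which were picked for large called changes. Kars was not called (−0.13), nor was Vars2 (0.26).

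Eprs, Gars and Hars2 were followed for a known second role or an unusual gene. Eprs, the fused glutamate and proline enzyme, gave 1250, 1290 and 1329 normalised counts in Unstimulated and 1643, 1601 and 1548 in LPS libraries (0.31 ± 0.0664, adjusted p = 8.22e-06), and 1816, 1675 and 1517 in LPS + JQ1 libraries, which overlap those of LPS (0.07 ± 0.0659). Gars went from 690, 646 and 705 to 1181, 1197 and 1130 with LPS (0.77 ± 0.0704, adjusted p = 2.61e-27). Under total-count scaling the LPS difference was −0.62 for Eprs and −0.16 for Gars, so their direction rests on the scaling, while relative to all expressed genes Eprs lay 0.34 to 0.38 and Gars 0.81 to 0.84 higher. Hars and Hars2, the cytosolic and mitochondrial histidine enzymes, are neighbours on opposite strands that share 195 exon bases. With LPS, Hars went from 418, 394 and 456 to 607, 682 and 528 (0.51 ± 0.0986) and Hars2 from 199, 186 and 186 to 102, 102 and 108 (−0.88 ± 0.146, adjusted p = 5.69e-09), so the neighbours moved in opposite directions relative to all expressed genes.

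In mm9, members lay at these gene positions in the GENCODE annotation: Wars at chr12:110098240-110132384 (minus strand), Rars at chr11:35621883-35648008 (minus), Kars at chr8:114517340-114535223 (minus), Nars2 at chr7:104100015-104213271 (plus), Vars2 at chr17:35792579-35804537 (minus), Fars2 at chr13:36209280-36629461 (plus) and Lars2 at chr9:123276058-123371782 (plus). Expected counts are summed over the whole gene, so no exon or isoform is told apart. Exons of 9 of the 36 members overlap those of another gene on the opposite strand, with the longest overlap in Iars2 (2018 of 8885 exon bases, with Rab3gap2) and 284 of 4213 bases in Nars2.

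Other tRNA charging factors are described by their counts alone. Of 14 other tRNA charging factors, LPS left 3 higher and 10 lower, where 31.6% and 32.9% of all genes tested were, a list that includes Gatc, part of the complex that makes glutaminyl-tRNA in mitochondria (−2.25 ± 0.157), and Pstk, a kinase of selenocysteine tRNA charging (−2.73 ± 0.386). In LPS + JQ1 against LPS, 7 were higher and 2 lower, where 24.4% and 32.9% of all genes were, with Pstk (6.20 to 9.90 normalised counts in LPS libraries) at 2.52 ± 0.392, Dtd2 at 1.11 ± 0.207 and Dtd1 at −2.02 ± 0.276. Of the 3 scaffold proteins of the multisynthetase complex, Eef1e1 (AIMP3) rose with LPS (2.01 ± 0.148) and was lower in LPS + JQ1 (−0.91 ± 0.135) and LPS + IL-10 (−0.51 ± 0.132), whereas Aimp2 was higher in LPS + JQ1 (0.89 ± 0.162). The directions named here and in the next paragraph are those under median-of-ratios scaling.

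The genes of the amino acid response, the pathway that many synthetases belong to, changed in both directions. With LPS, 7 of 13 were higher and 5 lower (31.6% and 32.9% of all genes tested), Atf4 among the higher (1.14 ± 0.0551) with Ppp1r15a (4.15 ± 0.169), Mthfd2 (2.30 ± 0.114) and Psat1 (1.66 ± 0.135) at the top, and Trib3 (−3.25 ± 0.497), Eif2ak4 (−2.24 ± 0.132) and Sesn2 (−1.74 ± 0.172) at the bottom. In LPS + JQ1 against LPS, 6 were higher and 4 lower (24.4% and 32.9% of all genes), with Trib3 (4.09 ± 0.491), Chac1 (3.84 ± 0.611) and Sesn2 (2.82 ± 0.168), and Atf4 at 0.73 ± 0.0516, on one side and Ppp1r15a (−2.97 ± 0.165), Phgdh (−2.27 ± 0.299) and Psat1 (−0.88 ± 0.131) on the other. The folds of Trib3 and Chac1 rest on few reads, since their LPS libraries held 3.68 to 5.17 and 2.07 to 6.14 normalised counts. Amino acid transporters were 7 higher and 1 lower of 9 with LPS, 4 higher and 3 lower in LPS + JQ1 against LPS, and 0 higher and 6 lower in LPS + IL-10 against LPS, where 8.38% and 8.81% of all genes were.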

How the data were processed

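RNA from 18 macrophage cultures (6 groups of 3) was sequenced after ribosomal RNA depletion with a stranded, paired-end library kit. The authors removed artefact reads, aligned to mm9 with STAR and estimated gene levels with RSEM 1.2.31 at default settings, which do not use strand, on RefSeq transcripts. The deposited expected counts are RSEM's estimated counts per gene, of which 5.4% to 6.63% per library were not whole, and the deposited TPM values are scaled by the authors to transcript length and library total. The deposited FPKM values, made by the authors from the same estimates, were not used. Methods name a vehicle control for pretreatment before LPS, while the labels call those samples untreated.

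Expected counts were rounded and fitted with DESeq2 1.42.0 (R 4.3.3; Wald test, 1 term per group, all 18 libraries, median-of-ratios size factors), and p-values were Benjamini-Hochberg adjusted over all genes tested, with calls under 0.05. The study's pairwise comparisons used the same test. Groups and replicate numbers were taken from the sample labels. Differences are log2 fold changes with SEs from the fit, without shrinkage. TPM was used to compare levels between genes. The alternatives were edgeR 4.0.16 quasi-likelihood, TMM factors, total-count scaling, limma 3.58.1 on log2(TPM + 1) and log2(TPM + 0.1), filters of at least 10 counts in 3 or in all libraries, replicate number as a block, lane as a covariate, a fit of the compared groups alone, and leaving out each library. With 3 counts as the floor, a gene at 0 could lie at up to 0.106 to 0.442 CPM (counts scaled to the library total), which covers counting error only. Replicates differed by more than sampling noise (chi-square per degree of freedom 3.97 to 28.3 over 18 pairs), so none was a repeated library.

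Cells came from 3 mice, but the labels do not tie a replicate number to a mouse. Over 12243 genes, the deviations of same-numbered libraries from their group means correlated over 0.1 in all 3 pairs for IL-10 against Unstimulated (0.112 to 0.271) and LPS + IL-10 against LPS (0.199 to 0.519), so the numbers were taken to pair those libraries alone. Replicate 1 libraries were all on lane 7 and replicate 3 libraries on lane 8, while replicate 2 used lane 7 without LPS and lane 8 with LPS.

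The members and all gene lists were chosen with earlier results of these data known. Values in every library are given, for each comparison and interaction, for up to 3 members with the largest rise and 3 with the largest fall among those called and of the same direction in all 3 same-numbered pairs, and for Wars, Eprs, Gars, Kars and Hars2. Values beyond this rule, of Sars, Vars, Hars, Sars2, Yars2 with LPS, Vars2 with JQ1 and Lars2 in all groups, were added after they were seen, as was the mention of Farsb. Of other lists, up to 3 called genes in each direction are named, plus Atf4. 1 gene of these lists is not reported here. Promoter windows came from RefSeq (GRCm38.p6) by symbol, with Mars found as Mars1, and were placed in mm9 by exact match. Gene positions came from GENCODE vM1 on mm9. Figures were drawn with matplotlib 3.10.9.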

Additional observations from a re-analysis of the deposited data

Results flagged for a closer look

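The response to LPS differed between JQ1-treated and untreated cells, by the interaction term of the DESeq2 fit (adjusted p under 0.05), for 21 members. Of all genes tested, 17.7% were above 0 and 23.8% below. Each value is the log2 fold change of LPS with JQ1 minus that without it. Above 0 were the mitochondrial Aars2 (1.51), Mars2 (1.23), Nars2 (1.16), Sars2 (1.13), Pars2 (1.00), Tars2 (0.85) and Cars2 (0.79). The cytosolic members above 0 were Mars (0.99), Yars (0.86), Iars (0.69), Sars (0.50), Aars (0.48), Tars (0.46), Cars (0.37), Gars (0.36) and Lars (0.31). Below 0 were Rars (−1.01), Fars2 (−0.68), Kars (−0.56), Farsa (−0.54) and Wars (−0.46). Every member named above 0 kept its call under all 4 scalings, but of those below 0 only Rars did. Of these 21, Cars was not called without any of 9 single libraries, Fars2 without any of 8 and Pars2 without LPS replicate 1.

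The response to LPS differed between IL-10-treated and untreated cells for Wars alone (−0.39), where 4% of all genes tested were above 0 and 3.44% below. This call was lost without any of 8 single libraries, and with TMM, total-count or TPM scaling.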

How the results depend on the processing

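Of 46 pairs of a named member and a comparison, 39 stayed on the same side of the threshold in all 10 alternatives and all 18 left-out libraries, and 0 changed sign. These pairs were picked for the largest called changes with the same direction in all 3 same-numbered pairs, so this favours stable calls. Some members outside them did change sign. With total-count scaling the LPS change of Hars went from 0.51 to −0.42 and that of Yars from 0.53 to −0.40, while others such as Aars kept their sign. With total-count scaling and with limma on log2(TPM + 1) and log2(TPM + 0.1), LPS left 5 cytosolic members higher and 13 lower and 0 mitochondrial higher and 16 lower. In the same 3 settings, JQ1 left 1 cytosolic member higher, 2 cytosolic members were lower in LPS + IL-10 against LPS, and the JQ1 interaction had 15 cytosolic members above and 1 below 0. With total-count scaling, 11 cytosolic members were lower with JQ1 and 12 mitochondrial members were above 0 in the interaction (11 in both limma fits). Mitochondrial members higher with JQ1 numbered 3 with limma on log2(TPM + 0.1), and 3 with at least 10 counts in every library, which leaves out Mars2 and Nars2. Fitting only the compared groups gave 1 cytosolic member lower in LPS + IL-10. The JQ1 interaction had 0 mitochondrial members below 0 with edgeR, TMM, total-count scaling, both limma fits and only the groups compared. The IL-10 interaction had 0 members in those settings, with at least 10 counts in 3 libraries, with the lane covariate and with the replicate block. In the block fit the adjusted p of Wars there was 0.0591, Lars2 was gained in LPS + IL-10 against IL-10 (29 calls in place of 28), and the block changed no other call, also not where the numbers paired the libraries. In the other comparisons at least 1 pair's correlation was under 0.1, although for LPS and JQ1 against Unstimulated and for LPS + JQ1 against JQ1 all 6 libraries correlated best with their own number. That held for 2 of 6 in LPS + JQ1 against LPS, 2 of 6 in LPS + IL-10 against IL-10 and 1 of 6 in LPS + JQ1 against LPS + IL-10. The cause of these shifts beyond the scaling itself was not tested.

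The balance of cytosolic and mitochondrial enzymes changed with LPS by 0.95 on log2(TPM + 1), 1.22 with members of at least 10 counts and 1.22 as a median over members. With JQ1 it was 0.25 for members of at least 10 counts and 0.41 as a median, and with IL-10 0.17 as a median. For LPS + JQ1 against LPS it was −0.10 on log2(TPM + 1), −0.10 with at least 10 counts and 0.38 as a median. The interaction was −0.16 on log2(TPM + 1), −0.36 with at least 10 counts, −0.02 as a median and −0.36 without Lars2, a setting chosen after seeing the data.

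Leaving out 1 library gave, for cytosolic higher and lower and mitochondrial higher and lower, 10 to 12, 5 to 5, 0 to 1 and 10 to 11 members with LPS. For JQ1 these were 3 to 4, 4 to 8, 4 to 5 and 5 to 6, and for LPS + JQ1 against LPS 7 to 10, 5 to 6, 8 to 8 and 2 to 3. In LPS + IL-10 against LPS 2 to 7 cytosolic members were lower. The JQ1 interaction gave 8 to 10, 4 to 4, 6 to 8 and 0 to 1, and the IL-10 interaction 0 to 2. Called members numbered 24 to 26 for LPS + JQ1 against JQ1, 26 to 28 for LPS + IL-10 against IL-10 and 26 to 28 for LPS + JQ1 against LPS + IL-10. The balance ranged from 1.26 to 1.42 for LPS, 0.04 to 0.16 for JQ1, −0.08 to 0.04 for IL-10, −0.40 to −0.23 for LPS + JQ1 against LPS, −0.22 to −0.08 for LPS + IL-10 against LPS and −0.51 to −0.34 for the interaction.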

Other observations

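Other parts of the translation machinery gave values beside those of the synthetases, here under median-of-ratios scaling and without a test of any list. Of 5 cytosolic elongation factors, JQ1 without LPS left 5 higher, with Eef1d at 0.72 and Eef2 at 0.69, where 21.9% of all genes tested were higher. In LPS + JQ1 against LPS 4 were higher, beside 24.4% of all genes tested. Of 9 mitochondrial translation factors, LPS left 1 higher (Gfm1, an elongation factor, 0.80) and 4 lower, where 31.6% and 32.9% of all genes tested were. Among those lower were Mtrf1, a release factor (−1.13), Mrrf, the ribosome recycling factor (−0.86), and Mtif3, an initiation factor (−0.74).

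Among amino acid transporters, Slc7a2 and Slc7a11, carriers of cationic amino acids and of cystine, rose with LPS by 6.64 and 5.53 on the log2 scale, and Slc7a5, a carrier of large neutral amino acids, by 2.17, while Slc1a5, a glutamine carrier, changed by −0.71. The interferon-induced genes listed, of which 6 were tested, were 6 higher with LPS (31.6% of all genes tested) and 6 lower with JQ1 alone (23.7%). Against LPS, 3 were lower in LPS + JQ1 (32.9%) and 0 were called in LPS + IL-10 (8.38% higher, 8.81% lower). With JQ1 alone their median shift between same-numbered libraries was −3.27 for replicate 1, whose Unstimulated library was rich in interferon-induced RNA. It was −0.96 and −1.20 for replicates 2 and 3.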
